A study of Mus musculus with 96 samples.

Results

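The 48 cells sorted as pre-HSCs from the E11.5 aorta-gonad-mesonephros region (AGM) were divided by reads of Ptprc, the gene of the pan-leukocyte phosphatase CD45. The members were chosen by this measured count. A cell with at least 1 Ptprc read was placed on the side with Ptprc, which held 28 cells, and a cell with 0 reads on the side without, which held 20. The series holds 96 cells in all. The other 48 came from the E11.5 yolk sac (16 cells) and from fetal liver at E12.5 (16 cells) and E14.5 (16 cells). All AGM cells came from C57BL/6 embryos and passed the same gate, negative for Ter119 and CD11b and positive for CD144 (Cdh5), c-kit (Kit) and EPCR (Procr). CD45 was not part of this gate, so both sides could enter it. Cells were sorted 1 to a well of a 96-well plate and their cDNA was amplified with a SMART-Seq kit. No label names an embryo, litter or plate for a cell, so the 48 cells count as 1 sample and the sides as pieces of it. No test between the sides is therefore possible, and the intervals printed (95%, exact binomial for shares of cells and exact Poisson for pooled reads) cover counting error only.

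Haematopoietic stem cells (HSCs) arise in the mid-gestation embryo from haemogenic endothelium of the dorsal aorta. Cells on this path first keep endothelial surface proteins such as VE-cadherin and then add CD45, and pre-HSCs are staged as type I before and type II after CD45 appears on the surface. CD45 removes the inhibitory phosphate from Src-family kinases and so sets the threshold of receptor signalling in blood cells. Ptprc RNA is only a stand-in for the surface protein: a cell can hold the protein with no read of its RNA, and the reverse. The gene lies on chromosome 1 (138062861 to 138175708, minus strand, mm10 as annotated by GENCODE M21), and its longest annotated transcript has 5074 bases.

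Ptprc itself gave a wide gap between the sides, which the choice of cells fixes and which is described only. In the 28 cells with Ptprc the count ran from 8 reads (cell 18) through a median of 108.5 to 852 (cell 45), or from 7.58 through 93.3 to 709 reads per 1000000 reads of the cell (CPM). The cells nearest the threshold were cell 18 with 8 reads, cell 36 with 10 and cell 2 with 13, and only 1 cell had between 1 and 9 reads. The other 20 cells had none. The share with Ptprc was 58.3% (43.2 to 72.4), and it was 60.5% (26 of 43) after every cell was thinned to 690000 reads and 5 shallower cells were left out. Total reads had a median of 1434387 in cells without Ptprc (267500 to 1889909) and 1125743 in cells with it (525512 to 1823366). The 5 cells under 690000 reads were 3 of the 20 without Ptprc and 2 of the 28 with it. Median reads were lower without Ptprc within cells 1 to 16 (866160 against 1188020), and higher without it within cells 17 to 32 and 33 to 48.

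Genes detected, with Ptprc left out, differed little in the middle and more at the top. Cells with Ptprc had from 3501 to 11093 genes with a read, with a median of 5762.5. Cells without had from 3486 to 7972, with a median of 5425, so the sides overlapped over nearly the whole range. After thinning the medians were 5545.5 and 5177. Mitochondrial genes took a median of 0.597% and 0.628% of reads and ribosomal protein genes 9.77% and 9.42%, with and without Ptprc.

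The share of cells with Ptprc and genes detected were set against label number. Of cells 1 to 16, 12 had Ptprc reads and 4 did not. The split was 5 and 11 among cells 17 to 32 and 11 and 5 among cells 33 to 48. Genes detected fell across the same numbers, with medians of 6571.5, 5483 and 4492.5, and a Spearman correlation of -0.74 with label number over the 48 cells. The labels name no library batch for a cell. Within a range of numbers the sides were close: 6821.5 and 6295.5 in cells 1 to 16, 5483 and 5483 in cells 17 to 32, and 4496 and 4418 in cells 33 to 48. What the numbers stand for is not given in the labels, and their part in the results below was not tested beyond the values within each range of numbers.

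**Figure D1:**
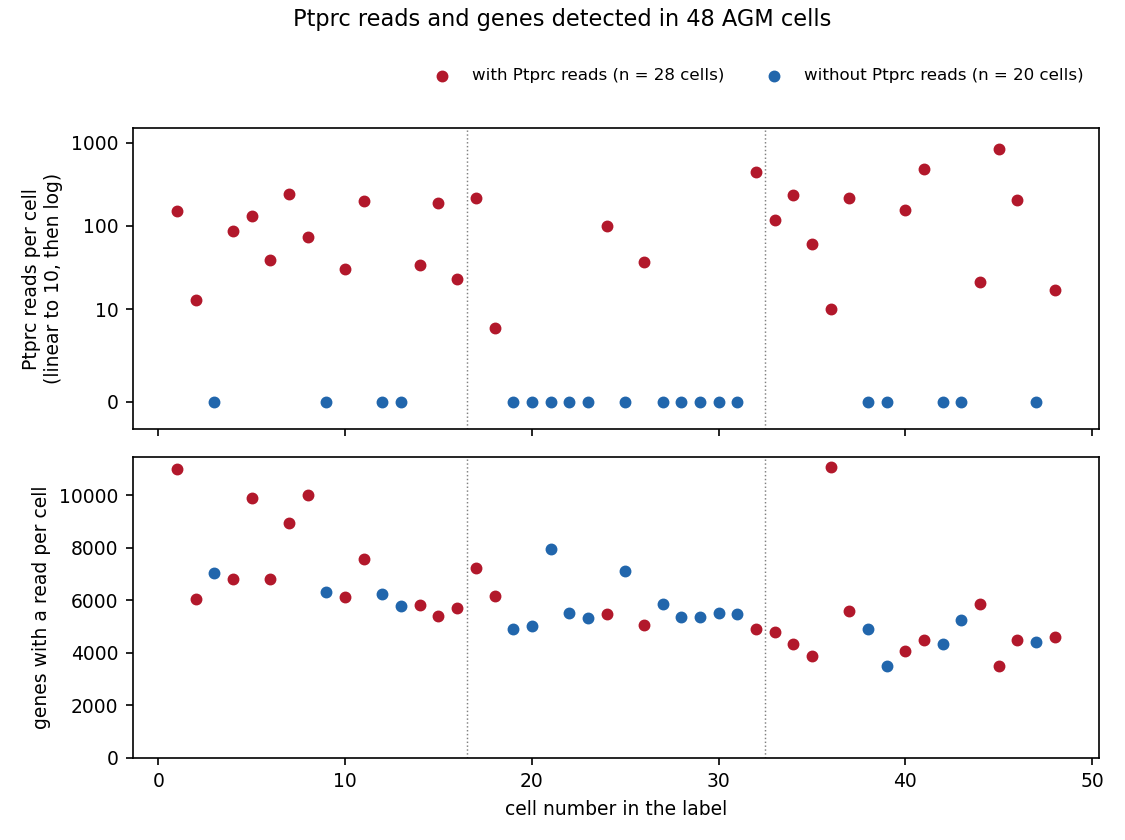
Ptprc reads (upper panel, linear to 10 and logarithmic above) and genes with a read (lower panel) in each of the 48 AGM cells, by the cell number in the label; red points are the 28 cells with Ptprc reads, blue points the 20 without, and dotted lines separate cells 1 to 16, 17 to 32 and 33 to 48. Blue points gather among cells 17 to 32 (11 of 16), and genes detected fall from a median of 6571.5 to 4492.5 along the axis.

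Cells 3, 9 and 36 stood apart from the other 45 and are described before the comparisons, with the genes quoted for them chosen after their values were seen. Their summed CPM over 40 leukocyte genes was 1205 in cell 3, 1197 in cell 9 and 1276 in cell 36, while the next lowest cell had 3429. Cell 3, without Ptprc, had 33211 CPM over 36 endothelial genes, with 3685 CPM of Gja4 and 664 CPM of Gja5, connexins of arterial endothelium. It had 0 reads of Kit, Spi1 and Runx1, although it carried 242 reads of Cdh5 and 1126 of Procr. Cell 36, with 10 Ptprc reads, had 17771 endothelial CPM, 525 CPM of the basement membrane gene Nid2, 0 reads of Runx1 and 23 of Spi1. Among the other 45 cells the endothelial sum reached at most 7866 CPM. Cell 9, without Ptprc, had 2588 endothelial CPM and 0 reads of Kit and Procr. It carried Stmn2 (3191 CPM), Tubb3 (2687 CPM) and Nefm (1258 CPM), genes of neurons, which had a median of 0 CPM in the other 45 cells. Their highest values among those 45 cells were 395, 2266 and 340 CPM. Cells 3 and 9 were not alone in lacking RNA of a gate gene: of the other 45 cells, 42 had a read of Kit and 39 of Procr. Cells 3 and 9 were among the 4 cells without Ptprc in cells 1 to 16, and cell 36 among the 11 with Ptprc in cells 33 to 48. Values within these ranges of numbers therefore include them. Results that rest on these cells are given with and without them. No 2 AGM cells had identical counts, and the highest correlation between 2 cells (Pearson, log2 of CPM plus 1) was 0.82.

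**Figure D2:**
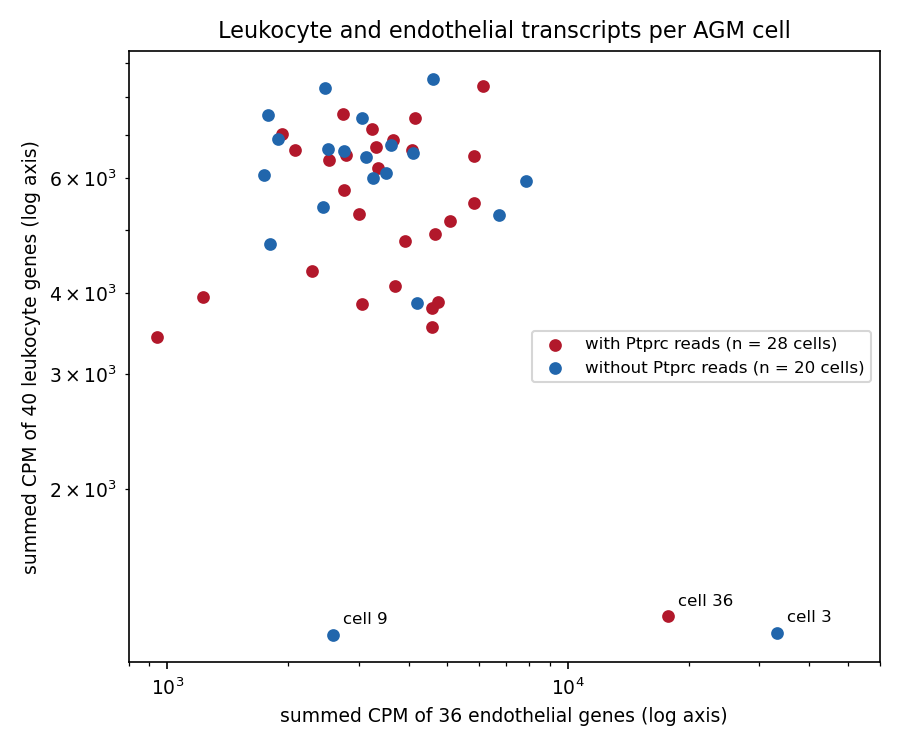
Summed CPM of 36 endothelial genes (horizontal) and of 40 leukocyte genes (vertical) in each AGM cell, both on log axes, with 28 cells with Ptprc in red and 20 without in blue. Red and blue points mix at leukocyte sums of 3429 and above, while cells 3, 9 and 36 lie between 1197 and 1276.

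The genes of the gate were checked first. Kit, the stem cell factor receptor, had a read in 28 of 28 cells with Ptprc and in 15 of 20 without (75%, 50.9 to 91.3). Its level ran from 0.948 through a median of 112 to 322 CPM with Ptprc, and from 0 through 52.6 to 284 CPM without. Pooled over cells it stood at 117 CPM (114 to 121) against 62.1 CPM (59.1 to 65.2), a log2 ratio of 0.91 on the scale of CPM plus 1, with Ptprc over without. The ranges overlapped almost fully, but 5 cells at 0 lay on the side without. Leaving out cell 25 or cell 31 lifted the ratio to 1.00 and 1.02, and without cells 3, 9 and 36 it was 0.85. The ratio kept its sign under all 17 alternative values, from 0.55 to 1.63.

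Procr, the receptor for activated protein C, had a read in 26 of 28 and 15 of 20 cells, with medians of 221.3 and 130 CPM and a log2 ratio of 0.39. Cdh5, VE-cadherin, had a read in 27 of 28 and 18 of 20 cells, with medians of 33.03 and 35.9 CPM and a ratio of -0.11. Itgam, which encodes the CD11b excluded by the gate, had a read in 4 of 28 and 4 of 20 cells. All 3 positive gate genes had a read in 25 of 28 cells with Ptprc (89.3%, 71.8 to 97.7) and in 10 of 20 without (50%, 27.2 to 72.8). Without cells 3, 9 and 36 the counts were 24 of 27 and 10 of 18, and after thinning 22 of 26 and 8 of 17. The order was the same within label numbers, at 11 of 12 and 2 of 4 in cells 1 to 16, 5 of 5 and 7 of 11 in cells 17 to 32, and 9 of 11 and 1 of 5 in cells 33 to 48. Among cells with genes detected between the 25th and 75th percentiles the gap was smaller, at 9 of 11 and 8 of 13.

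Over all 13762 genes with at least 30 reads in the 48 cells, the median log2 ratio was 0.07. A gene was called where the pooled ratio reached 2-fold and the difference of mean log2 values over cells had the same sign. By this rule 19.8% of genes were higher in cells with Ptprc and 12.2% lower, and 22.5% and 11.4% without cells 3, 9 and 36. With so many genes past 2-fold between parts of 1 sample, each count below is read against these shares.

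Leukocyte genes as a group did not follow Ptprc. Of 37 measured (Ptprc left out), 9 were called higher in cells with Ptprc and 3 lower, and the median log2 ratio was 0.11 (20 above 0 and 17 below). Leaving out a single cell moved this median between -0.06 (cell 41) and 0.20 (cell 42), and it was also below 0 without cell 37 or cell 35. Per cell, the summed leukocyte level ran from 1276 through a median of 5627 to 8300 CPM with Ptprc and from 1197 through 6284 to 8530 CPM without. The sides overlapped fully. Coro1a (a coronin of the leukocyte actin cytoskeleton), Arhgdib (a regulator of the cytoskeleton), Laptm5 (a lysosomal regulator of antigen receptors) and Cyba (a subunit of the phagocyte NADPH oxidase) were detected together in 27 of 28 cells with Ptprc and 20 of 20 without.

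The levels of these 4 genes differed by less than 2-fold between the sides. Coro1a ran up to 1856 CPM with Ptprc and 2142 CPM without, with medians of 1170 and 1421 CPM and a log2 ratio of -0.21. Arhgdib had medians of 972 and 1150 CPM and a ratio of -0.40, and Laptm5 281 and 315 CPM and a ratio of 0.02. Cyba had medians of 258 and 223.2 CPM and a ratio of 0.11. The exceptions on the side without were cell 3, with 0.872 CPM of Coro1a, and cell 9, with 1.71 CPM of Laptm5 and 133 CPM of Arhgdib. Across the 48 cells the Spearman correlation of Ptprc CPM with the summed leukocyte level was 0.01, and within the 28 cells with Ptprc it was 0.42. Both are descriptions only, since the labels name no library batch for a cell.

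The 9 leukocyte genes called higher ranged from 33 cells with a read to 3. Itga4, the alpha4 integrin, had a read in 23 of 28 and 10 of 20 cells, with medians of 29.3 and 0.347 CPM and a log2 ratio of 1.07. That call was lost without any 1 of cells 6, 17, 21, 28, 29, 31, 42 or 43 (lowest 0.87). Lcp2, the adaptor SLP-76, had a read in 17 of 28 and 8 of 20 cells (ratio 1.57), and Hcls1, a haematopoietic cortactin homologue, in 16 of 28 and 7 of 20 (ratio 1.73). Cd27, a TNF receptor family member carried by lymphoid cells and HSCs, had a read in 18 of 28 and 10 of 20 cells (ratio 1.44). Selplg, the selectin ligand PSGL-1, had a read in 15 of 28 and 5 of 20 cells (ratio 1.77). It fell to 1.00 without cell 41, which loses the call, and was 2.82 without cell 29. Nckap1l, a subunit of the haematopoietic WAVE complex, had a read in 11 of 28 and 3 of 20 cells (ratio 1.85, and 2.53 without cell 20). Cd53, a leukocyte tetraspanin, had a read in 10 of 28 and 2 of 20 cells (ratio 4.46, and 3.66 without cell 40, which held 46.1% of its reads). Cytip, named after its values were seen, had a read in 13 of 28 and 4 of 20 cells. Itgal, the alphaL integrin, had a read in 3 of 28 cells and 0 of 20 (0 cells allow up to 15%), and 94.5% of its reads came from 1 cell.

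**Figure D3:**
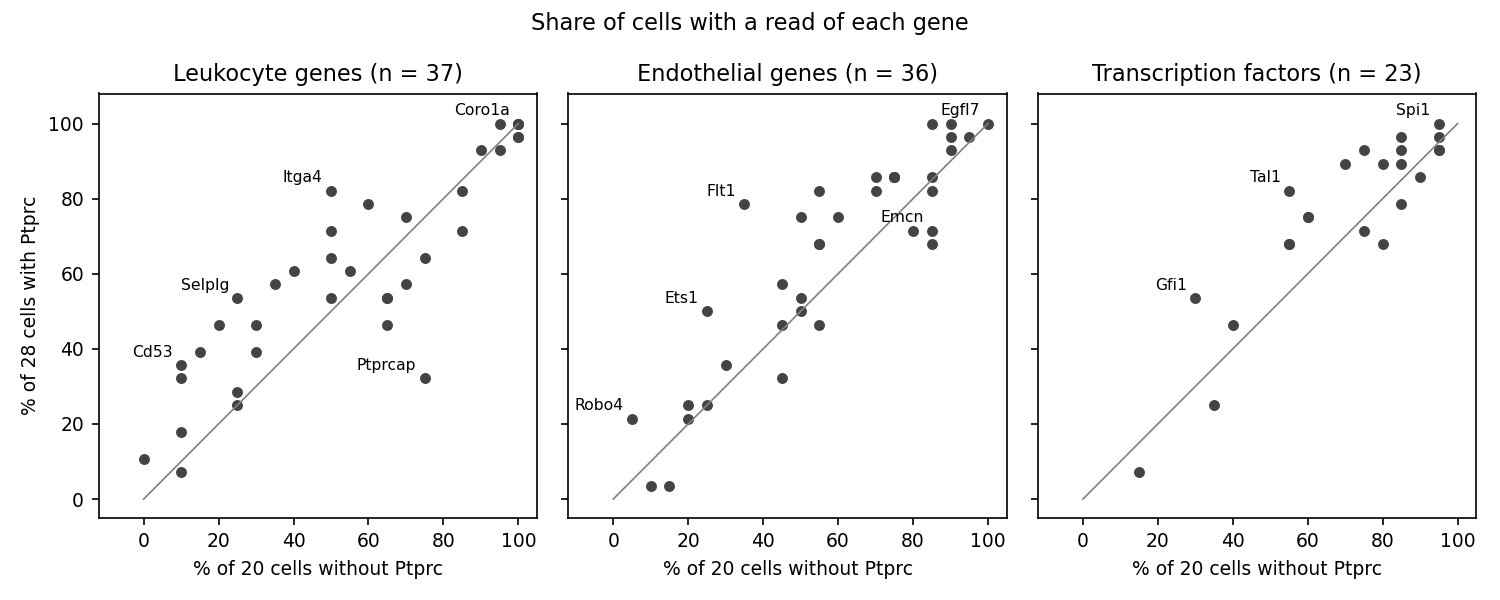
Share of the 28 cells with Ptprc (vertical, in percent) against share of the 20 cells without (horizontal, in percent) that had a read of each gene, for 37 leukocyte genes, 36 endothelial genes and 23 transcription factors; each point is a gene and the line marks equal shares. Genes found in nearly every cell lie near the line in all 3 panels, and Ptprcap lies far below it at 32.1% against 75%.

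Ptprcap, which encodes a small transmembrane protein that binds CD45, went the other way. It had a read in 9 of 28 cells with Ptprc (32.1%, 15.9 to 52.4) and in 15 of 20 without (75%, 50.9 to 91.3). Its level ran from 0 through a median of 0 to 358 CPM with Ptprc and from 0 through 65.9 to 435 CPM without, a log2 ratio of -1.07. The ranges overlapped, and the difference lay in the number of cells at 0. Among cells in the middle range of genes detected a read was found in 2 of 11 and 11 of 13, and after thinning in 9 of 26 and 13 of 17. Within label numbers it was 4 of 12 and 2 of 4, 1 of 5 and 9 of 11, and 4 of 11 and 4 of 5. The 2-fold call was lost without any 1 of cells 5, 17, 19, 23, 38 or 42 (weakest -0.86), and the sign reversed within cells 1 to 16 (1.24). Ptprcap (chromosome 19, 4153604 to 4156751, plus strand) overlaps Coro1b (4148619 to 4154035) on the same strand and Rps6kb2 (4153991 to 4163354) on the other. Together these 2 loci span the whole Ptprcap locus, so its reads may have been counted differently and its counts are uncertain. Evi2a and Cd52, the other leukocyte genes called lower and named after their values were seen, had a read in 7 of 28 and 5 of 20 cells and in 2 of 28 and 2 of 20.

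The receptor adaptors Tyrobp and Fcer1g and the cytokine receptor chain Il2rg were not called. Tyrobp had a read in 20 of 28 and 17 of 20 cells (ratio -0.26), Fcer1g in 16 of 28 and 14 of 20 (ratio -0.48) and Il2rg in 13 of 28 and 13 of 20 (ratio -0.74). Each of these was found in a smaller share of the cells with Ptprc.

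Genes of CD45 signalling were split in direction. Of 26 measured substrates, partners and neighbours of CD45, 4 were called higher and 3 lower, with a median log2 ratio of 0.08. Those called higher were Ptpn11, Btk, Fgr and Lgals3, and those called lower Ptprcap, Src and Ptpre, a receptor phosphatase named after its values were seen. Fgr, a Src-family kinase of myeloid cells, had a read in 5 of 28 cells and in 1 of 20 (1007 and 1 reads, with 78.1% of the former in cell 35). Lgals3, a galectin that can bind CD45, had a read in 5 of 28 and 0 of 20 cells. Src had a read in 7 of 28 and 7 of 20 cells (ratio -1.43, and -0.91 and no longer called without cell 19), and Ptpre in 20 of 28 and 16 of 20 (ratio -1.08, and -0.46 and no longer called without cell 42). Lyn, a Src-family kinase of blood cells, had a read in 23 of 28 and 14 of 20 cells, with medians of 32.97 and 22.8 CPM but a pooled ratio of -0.92. Ptpn6, the phosphatase SHP-1, had a read in 27 of 28 and 20 of 20 cells, with medians of 394 and 561 CPM (ratio -0.49). Ptpn11, the related phosphatase SHP-2, had a read in 17 of 28 and 6 of 20 cells (ratio 1.30, 1.00 and no longer called without cell 46, and 2.41 without cell 43). Btk, a cytoplasmic kinase of B and myeloid cells, had a read in 13 of 28 and 5 of 20 cells (ratio 1.20). Its call was lost without cell 32 (0.72) or cell 37 (0.99), and its ratio was 2.10 without cell 43. Jak1, a cytokine receptor kinase that CD45 can dephosphorylate, had a read in 26 of 28 and 20 of 20 cells (ratio 0.65, and 1.04 without cell 39).

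Endothelial genes were present on both sides. Of 36 measured, 4 were called higher and 2 lower, and the median log2 ratio was -0.13. Leaving out cell 3 turned this sign: without that cell the median was 0.37, and without cells 3, 9 and 36 it was 0.24. Within cells 17 to 32, which hold none of these cells, the median was -0.26. Per cell, the summed endothelial level ran from 941 through 3503 to 17771 CPM with Ptprc and from 1743 through 3096 to 33211 CPM without. Egfl7 (a secreted endothelial protein), Esam (an adhesion molecule of tight junctions) and Cdh5 were detected together in 25 of 28 and 17 of 20 cells. All 3 with the 4 leukocyte genes Coro1a, Arhgdib, Laptm5 and Cyba were found in 24 of 28 cells with Ptprc (85.7%) and 17 of 20 without (85.0%). These counts ask for 1 read of each gene, so they include cell 3, with 1 read of Coro1a, and cell 9, with 1 read of Laptm5. The 7 genes were named after their values were seen.

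The pooled levels of Egfl7, Esam, Cd34 and Ecscr were less than 2-fold apart. Egfl7 had medians of 635 and 795 CPM (ratio -0.06), Esam 361 and 364 CPM (ratio -0.33), Cd34 919 and 986 CPM (ratio -0.35) and Ecscr 353 and 279 CPM (ratio 0.15). Ets1, a transcription factor of endothelium and lymphocytes, had a read in 14 of 28 and 5 of 20 cells (ratio 2.34, and 3.83 without cell 3). Robo4, a guidance receptor of vessels, had a read in 6 of 28 cells and in 1 of 20 (ratio 2.19, and 3.40 without cell 21, which held all of its reads on that side). Sox7, a transcription factor of early endothelium, was pooled at 11.2 and 36.9 CPM (ratio -1.63), but cell 3 held 87.3% of the reads on its side and without it the ratio was 1.05. The call was also lost without cell 19 or cell 25, and the ratio was -2.30 without cell 36. Mmrn2, an extracellular protein of vessels, had a read in 9 of 28 and 9 of 20 cells, with a ratio of -1.27 that was 0.32 without cell 3.

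Notch and arterial genes depended on cell 3 still more. Their 21 measured members had a median log2 ratio of -0.44 with 1 called higher and 1 lower. Without cells 3, 9 and 36 the median was 0.97 and 9 were called higher and 1 lower. In cells 17 to 32, which hold none of these cells, the median was -1.27. It was -2.78 in cells 1 to 16 and 3.39 in cells 33 to 48. The summed level per cell had medians of 521 CPM with Ptprc and 280 CPM without. Gja4 shows the pattern: it had a read in 5 of 28 and 2 of 20 cells and a pooled ratio of -2.88, and cell 3 held 94.9% of its reads on the side without. Leaving out cell 3 gave 1.20, a 2-fold call in the other direction, and leaving out cells 1, 5, 8 or 36 in turn gave -2.95 to -3.45.

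Transcription factors of the endothelial-to-haematopoietic transition were shared by both sides. Of 23 measured, 3 were called higher and 0 lower, with a median log2 ratio of 0.03. Spi1 (PU.1) had a read in 28 of 28 and 19 of 20 cells, with medians of 432 and 436 CPM (ratio 0.11). Runx1, required for the transition, had a read in 25 of 28 and 17 of 20 cells, with medians of 84.4 and 42.7 CPM (ratio 0.71). Gata2 was found in 27 of 28 and 17 of 20 cells (ratio 0.15), Myb in 25 of 28 and 16 of 20 (ratio -0.39), Lmo2 in 27 of 28 and 19 of 20 (ratio -0.33) and Nfe2 in 26 of 28 and 17 of 20 (ratio -0.87, and -1.04 without cell 41). Gfi1, a repressor of the endothelial programme, had a read in 15 of 28 and 6 of 20 cells (ratio 0.21).

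Tal1, a basic helix-loop-helix factor of blood and endothelium, was called higher. It had a read in 23 of 28 and 11 of 20 cells and ran from 0 through 30.1 to 135 CPM with Ptprc and from 0 through 2.05 to 153.3 CPM without. The pooled ratio was 1.26, between 1.13 and 1.46 with any 1 cell left out, and above 0 under all 17 alternatives (0.17 to 2.0). The uncalled Runx1 also stayed above 0 under all 17, from 0.41 to 1.30. Ikzf1 (Ikaros) had a read in 19 of 28 and 11 of 20 cells (ratio 1.14, and 0.95 and no longer called without cell 44). Zeb2 had a read in 13 of 28 and 8 of 20 cells (ratio 1.90). Cell 46 held 51.8% of the Zeb2 reads on the side with Ptprc, and without it the ratio was 0.97.

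By the median of their ratios, surface genes used to stage pre-HSCs did not order the sides. The list also holds the positive gate genes, of which Kit had a read in 28 of 28 and 15 of 20 cells. Spn (CD43) had a read in 22 of 28 and 12 of 20 cells (ratio 0.21), and Itga2b (CD41), which marks early haematopoietic commitment, in 15 of 28 and 11 of 20. The Itga2b ratio was 0.88, and it passed 2-fold without cell 13, 22, 25 or 30 (up to 1.30). At least 1 of them was found in 26 of 28 cells with Ptprc and 17 of 20 without, where cells 3, 9 and 39 lacked both. Over the 21 measured genes of the surface list the median log2 ratio was -0.02, with 1 called higher (Cd27) and 0 lower.

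Among HSC regulators and markers, 5 of 26 measured genes were called higher, a share close to the 19.8% of all genes, and 0 lower. The median log2 ratio was 0.32, between 0.23 and 0.42 with any 1 cell left out. It was 0.19 within cells 1 to 16, -0.12 within cells 17 to 32 and 1.84 within cells 33 to 48. Nkx2-3, a homeobox factor, had a read in 18 of 28 and 9 of 20 cells, with medians of 11.1 and 0 CPM (ratio 1.76). Gata3 had a read in 9 of 28 and 3 of 20 cells (ratio 1.74) and Hoxa10 in 11 of 28 and 6 of 20 (ratio 1.21, and 2.14 without cell 27). The regulators Hlf (18 of 28 and 12 of 20 cells, ratio -0.45), Meis1 (21 of 28 and 16 of 20, ratio 0.16) and Mecom (20 of 28 and 15 of 20, ratio -0.54) were not called.

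Cell cycle genes gave 0 called of 20 S phase and replication genes and 1 higher of 20 genes of G2 and mitosis. The S phase list had a median log2 ratio of -0.24, with 14 of 20 genes lower in cells with Ptprc. Its sign turned by mean log2 values (0.11), in the middle range of genes detected (0.048) and within cells 17 to 32 (0.13). Rrm1, a subunit of ribonucleotide reductase, had medians of 245 and 357 CPM (ratio -0.70). Mcm2, of the replicative helicase, had medians of 155.7 and 274 CPM (ratio -0.51, but 0.18 by mean log2 values). Cdc45, a partner of this helicase, had medians of 21.7 and 136 CPM (ratio -0.77, and -1.10 without cell 34). Tpx2, a spindle assembly factor, was called higher (ratio 1.14), a call lost without cell 44 (0.95). Immediate-early and heat shock genes, which handling of cells can induce, had a median of -0.07 with 2 of 22 called higher. One of these was Klf2, a flow-responsive factor, detected in 22 of 28 and 12 of 20 cells (ratio 1.09, called neither without cell 11 nor without cell 29, and 1.76 without cell 3). Jun, an AP-1 subunit, had a read in 25 of 28 and 14 of 20 cells (ratio 0.89, and 1.49 without cell 31).

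Markers of other cell types were found on both sides, at levels that differed for some. Summed levels of macrophage genes had medians of 19.4 and 7.70 CPM, and Itgam was read in 8 of the 48 cells. Of 7 measured macrophage genes, 2 were called higher and 3 lower, with a median log2 ratio of -0.83. That sign rested on cell 9: without it the macrophage median was 0.29. Without cells 3, 9 and 36 it was above 0 as well (0.04), with 3 called higher and 1 lower. After thinning it was 1.37. Erythroid genes had medians of 375 and 257 CPM, with 4 of 11 called higher and 1 lower, beside 19.8% and 12.2% of all genes. Their median log2 ratio was -0.10, with 5 above 0 and 6 below. It was -0.37 without cells 3, 9 and 36 and 0.42 by mean log2 values. Megakaryocyte genes had medians of 499 and 429 CPM, with 3 of 13 higher and 1 lower, and lymphoid genes 201.7 and 197.2 CPM, with 1 of 9 higher and 1 lower. Mesenchymal genes had medians of 162.2 and 50.8 CPM, with 1152 CPM as the highest with Ptprc and 1161 CPM without, in cell 9. Of 14 mesenchymal genes, 6 were called higher and 3 lower, beside 19.8% and 12.2% of all genes, and the median log2 ratio was 0.84. This median was 0.018 with Ptprc taken at 10 CPM or more, which moves cell 18 to the other side. It was 0.20 with 10 CPM added and 0.19 by mean log2 values, and ran from 0.66 to 1.23 with 1 cell left out. Dcn, the proteoglycan decorin, had a read in 0 of 28 cells with Ptprc, which allows up to 10.7%, and in 4 of 20 without. Dcn ran against most of its list, in which 10 genes had a ratio above 0 and 4 below. Genes of mesonephric epithelium, gonad and neural crest had medians of 90.5 and 234.2 CPM, with 3 of 7 called higher and 1 lower. Their median log2 ratio was 0.06. Without cells 3, 9 and 36 it was 0.74, with 3 called higher and 0 lower. Granulocyte and myeloid progenitor genes had medians of 1211 and 1478 CPM, with 1 of 12 higher and 2 lower. Among them Mpo, myeloperoxidase, ran up to 339 CPM with Ptprc and 937 CPM without, with medians of 53.0 and 162.2 CPM, a read in 19 of 28 and 14 of 20 cells and a ratio of -1.31 (between -1.07 and -1.44 with any 1 cell left out). The part of these other markers in the results was not tested.

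**Figure D4:**
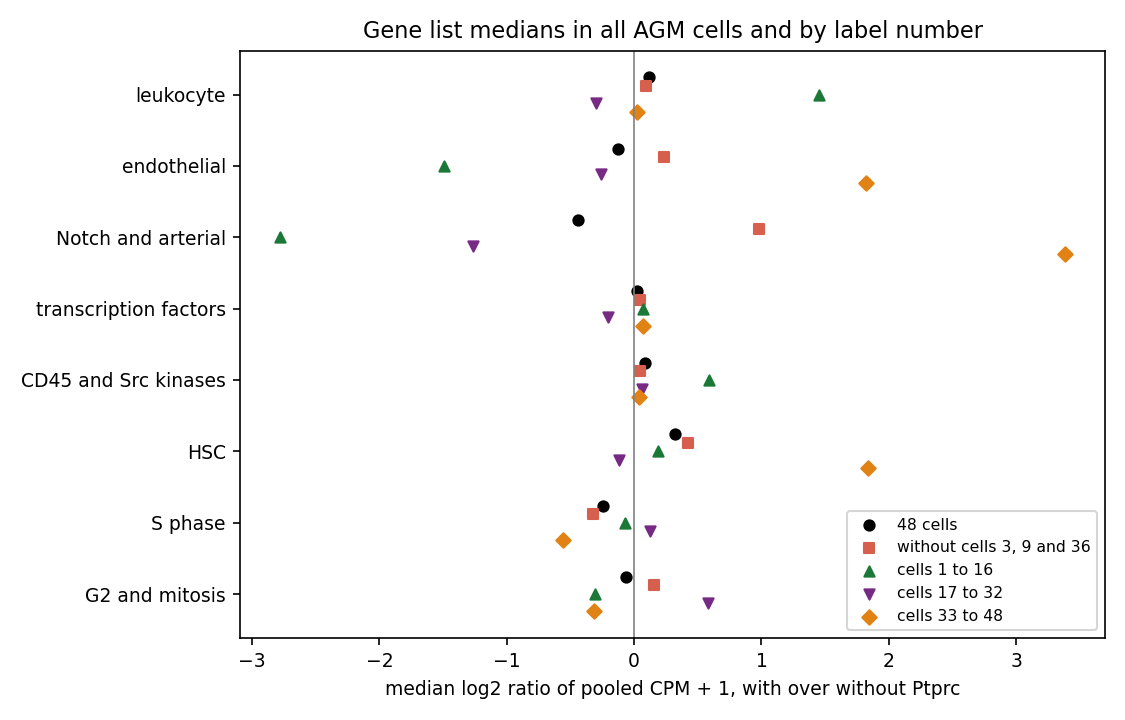
Median log2 ratio of pooled CPM plus 1, with Ptprc over without, for 8 gene lists, in all 48 cells (black), without cells 3, 9 and 36 (red squares) and within cells 1 to 16, 17 to 32 and 33 to 48 (green, purple and orange). The leukocyte and transcription factor medians of all 48 cells lie at 0.11 and 0.03, while the endothelial median runs from -1.49 in cells 1 to 16 to 1.82 in cells 33 to 48. Cells 1 to 16 include cells 3 and 9 on the side without Ptprc, and cells 33 to 48 include cell 36 on the side with it.

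The largest differences of single genes lay in genes of varied function. The 12 with the largest ratio among those read in at least 50% of the cells with Ptprc, with no more than 50% of the reads from 1 cell, lay between 3.0 and 3.92. They were Gemin5 (of the SMN complex), Tceal1, Wdfy4, Vps37a (of ESCRT-I), Nfe2l1, Alms1 (a centrosomal protein), Skiv2l (a helicase of RNA decay), Elmo2, Klf3, Tet3 (which oxidises methylcytosine), Senp1 (a SUMO protease) and Ccdc137. Gemin5 had a read in 14 of 28 and 3 of 20 cells (ratio 3.92), Alms1 in 16 of 28 and 2 of 20 (ratio 3.28) and Senp1 in 20 of 28 and 11 of 20 (ratio 3.03). The 12 lowest under the same limits, applied to the cells without Ptprc, lay between -2.04 and -2.88: Pfkfb1, St3gal5 (which makes the ganglioside GM3), Slc25a15, Fzd9, Armc7, Nsun4, B3galt6, Panx1, Fech (the last enzyme of haem synthesis), Kctd3, Fdxacb1 and Fam84b. Pfkfb1 had a read in 7 of 28 and 10 of 20 cells (ratio -2.88), and Fech in 4 of 28 and 10 of 20 (ratio -2.13). All 24 were picked as extremes of 13762 genes, so their size is a description and no stability is read from them.

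Leaving out 1 cell moved several of these ratios by over 1.5-fold. Among the higher genes it gave 4.60 for Gemin5 (cell 20), 4.51 for Tceal1 (cell 12), 4.65 and 2.80 for Wdfy4 (cells 20 and 32), 4.02 for Elmo2 (cell 29), 3.99 for Tet3 (cell 25) and 3.63 and 2.22 for Ccdc137 (cells 20 and 41). Without cell 3 it was 4.23 for Vps37a, 4.06 for Skiv2l and 4.25 for Klf3. Among the lower genes it gave -3.19 for Slc25a15 (cell 7), -1.51 for Fzd9 (cell 31), -3.08 for Nsun4 (cell 32), -2.74 and -2.95 for Fech (cells 11 and 17), -3.56 for Fdxacb1 (cell 45) and -1.31 for Fam84b (cell 31).

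By share of cells, the 8 genes that gained most were Jam3, Cpxm1, Ubxn7, Cdc25a, Vps51, Ier5l, Exoc1 and Cyp4f16. Jam3, a junctional adhesion molecule of endothelium and blood stem cells, had a read in 24 of 28 and 7 of 20 cells. Its level ran from 0 through 59.5 to 372 CPM with Ptprc and from 0 through 0 to 404 CPM without (ratio 0.81, past 2-fold without cell 25 at 1.04 or cell 42 at 1.63). The order of the Jam3 shares was the same within label numbers, at 12 of 12 and 1 of 4, 5 of 5 and 4 of 11, and 7 of 11 and 2 of 5. Cpxm1, a secreted carboxypeptidase-like protein, had a read in 22 of 28 and 6 of 20 cells (ratio 0.89, past 2-fold without cell 3, 19, 23 or 25, up to 1.36), and Cdc25a, a phosphatase that starts S phase, in 19 of 28 and 4 of 20 (ratio 1.70, and 2.53 without cell 25). Cyp4f16 had a read in 16 of 28 and 2 of 20 cells (ratio 0.95, past 2-fold without cell 16, 31, 35, 41, 46 or 47, up to 2.54). The ratios of Ubxn7 (1.63), Vps51 (2.86), Ier5l (2.0) and Exoc1 (2.46) became 2.68 without cell 23, 3.78 without cell 43, 2.95 without cell 25 and 4.87 without cell 3. The Ubxn7 ratio was below 0 within cells 1 to 16 (-2.16) and cells 17 to 32 (-1.83).

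In the other direction the 8 were Ptprcap, Syngr1, Fdxacb1, Fech, Tfpi, St3gal5, N4bp2l1 and Brms1. Tfpi, the tissue factor pathway inhibitor of endothelium, had a read in 18 of 28 and 20 of 20 cells, with medians of 46.8 and 86.2 CPM (ratio -0.88, and -1.20 without cell 36). Syngr1 had a read in 9 of 28 and 14 of 20 cells (ratio -1.14), N4bp2l1 in 6 of 28 and 11 of 20 (ratio -1.78, and -2.38 without cell 16 or cell 40) and Brms1 in 16 of 28 and 18 of 20 (ratio -0.33).

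Transcript length moved with the ratios. Genes were put into 5 groups of like size by their longest annotated transcript (known for 97.0% of genes tested), from at most 1632 bases to at least 5000. The median log2 ratio was -0.01, -0.02, 0.07, 0.16 and 0.25 from the shortest group to the longest, and the share called higher was 13.8%, 16.3%, 19.8%, 22.8% and 24.7%. The share called lower stayed between 10.6% and 13.1%. The 12 leading higher genes had a median length of 5717 bases and the 12 lower 3307. In each cell the number of genes over 4000 bases was set against the number of at most 1500 bases: the ratio had medians of 1.30 with Ptprc and 1.17 without, and a Spearman correlation of 0.89 with genes detected over the 48 cells. The longest Ptprc transcript, at 5074 bases, lies at the lower end of the longest group, which starts at 5000.

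The leukocyte list was divided along the same line. Its 24 genes with a transcript of at most 2992 bases, the median of all genes, had a median log2 ratio of -0.19, with 4 called higher and 3 lower. Its 13 longer genes had a median of 0.66, with 5 higher and 0 lower, and Itga4, Nckap1l and Lcp2 were among them. Over all genes the shorter and longer genes had medians of -0.01 and 0.18. With each gene set relative to its own length group, the leukocyte median was -0.01. Transcription factors were also apart by length, at -0.33 for 9 shorter genes and 0.34 for 14 longer ones, whereas HSC genes were alike at 0.31 and 0.32. Genes of CD45 signalling went the other way, at 0.20 for 10 shorter genes and -0.23 for 16 longer ones, but by mean log2 values they did not (0.26 and 0.43). What the length moved with, beyond genes detected, was not tested.

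**Figure D5:**
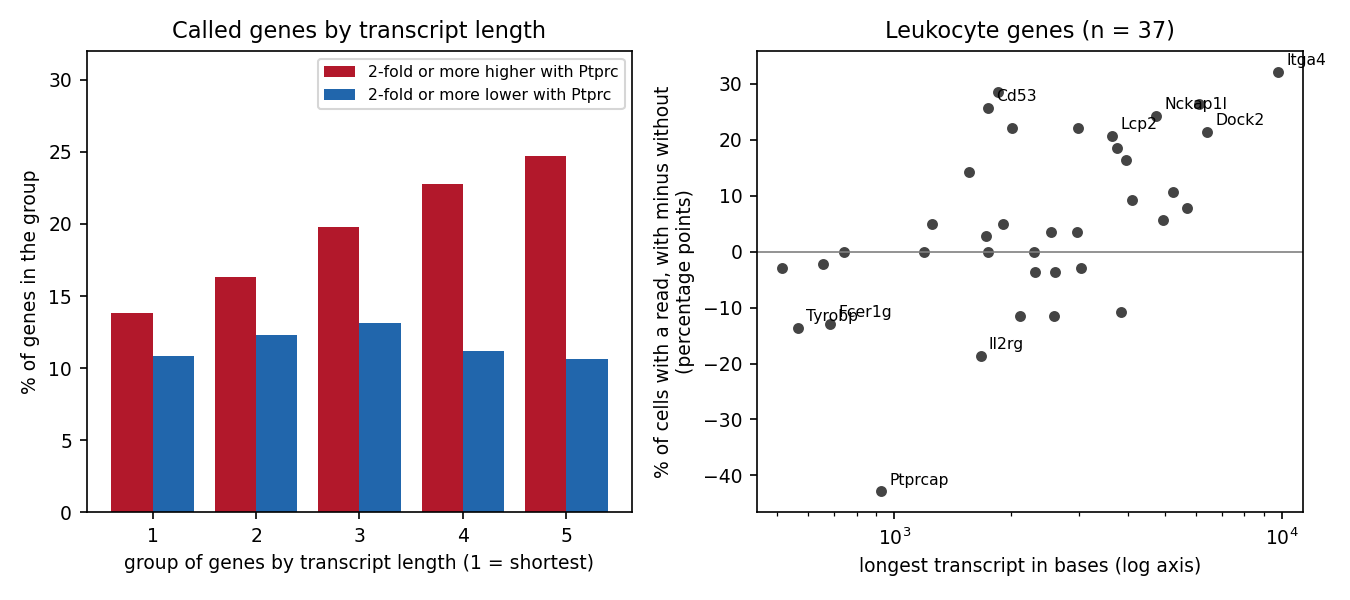
Left, percent of genes called 2-fold or more higher (red) or lower (blue) in cells with Ptprc, by group of transcript length from 1 (shortest) to 5 (longest). Right, for 37 leukocyte genes, the difference in the percent of cells with a read, with Ptprc minus without in percentage points, against the longest transcript in bases (log axis); red bars climb from 13.8% to 24.7%, and Itga4 and Ptprcap mark the upper and lower ends on the right.

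Over the whole transcriptome the sides were mixed in part. The nearest other cell was found in 10 principal components of the 1000 most variable genes (Ptprc and sex-linked genes left out). It was on the same side for 22 of 28 cells with Ptprc (78.6%, 59.0 to 91.7) and 11 of 20 without (55.0%, 31.5 to 76.9). The sizes of the sides alone give 57.4% and 40.4%. With the 2000 most variable genes the shares were 64.3% and 40%. After thinning the values were 80.8% and 29.4%, where sizes alone give 59.5% and 38.1%, and without cells 3, 9 and 36 they were 77.8% and 44.4%. The leading component took up 13.2% of the variance, with a Pearson correlation of 0.85 to genes detected and of -0.62 to label number. Cells with at least 10 reads of Y-linked genes, and so from male embryos, were 15 of 28 and 8 of 20.

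The same split in the other groups, whose cells the rule did not use, gave 9 and 7 cells in the E11.5 yolk sac, 12 and 4 in E12.5 fetal liver and 10 and 6 in E14.5 fetal liver. Genes detected had a higher median with Ptprc in each: 7310 and 4746, 4411.5 and 3574.5, and 5571 and 4295. Leukocyte genes had median log2 ratios of -0.22, 0.02 and -0.09, beside 0.28, 0.97 and 0.25 over all genes of these groups (0.11 beside 0.07 in the AGM). Endothelial medians were 2.13, 0.44 and 0.37. Itga4 was found in a larger share of the cells with Ptprc, in 9 of 9 and 2 of 7 yolk sac cells, 11 of 12 and 2 of 4 cells at E12.5, and 9 of 10 and 3 of 6 at E14.5. Ptprcap was not found less widely there: it had a read in 7 of 9 and 5 of 7, 12 of 12 and 4 of 4, and 10 of 10 and 5 of 6 cells. Jam3 had a read in 5 of 9 and 4 of 7, 7 of 12 and 1 of 4, and 7 of 10 and 3 of 6 cells. Lcp2 had a read in 8 of 9 and 3 of 7, 5 of 12 and 1 of 4, and 4 of 10 and 5 of 6 cells. St3gal5, found in 10 of 28 and 14 of 20 AGM cells, was found in larger shares with it in all 3 groups, at 8 of 9 and 5 of 7, 4 of 12 and 0 of 4, and 6 of 10 and 1 of 6 cells. Coro1a, Arhgdib, Laptm5 and Cyba were found together in all of these cells but 1, an E12.5 cell without Ptprc. Whether the AGM cells differ from these groups in any of these values was not tested, since each group is 1 sample.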

How the data were processed

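Whole-number read counts by gene, not normalized, were deposited by the authors as a single table of 96 columns, and each column name matched 1 cell. Per the submitters' processing notes, FastQC, Trimmomatic 0.36, STAR and HTSeq were used with build mm10, with no role or order given; the annotation and strand setting are not given in the sources used here. No molecular identifiers are named, so reads are not molecules. Rows sharing a symbol (113 of 19949) were summed. Symbols and the longest transcript came from GENCODE M21.

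Python 3.11.15 with numpy 2.4.6, pandas 2.3.3, scipy 1.17.1 and scikit-learn 1.9.0 was used. Reads were pooled per side without Ptprc (33770447 with, 26505814 without) and scaled to CPM; 1 CPM was added before the log2 ratio, which understates the change of low genes. Genes needed 30 reads over the 48 cells. The calculation was tested on simulated data. For a share of 0 cells a floor of 3 cells stands in place of the binomial interval: up to 10.7% of 28 cells and 15% of 20.

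The sides, lists and checks were chosen with earlier results of these data known. Genes were named by a rule, which takes the gate genes, at most 6 genes per list with the largest absolute ratio, the 12 largest ratios and the 8 largest differences in share of cells in each direction, with predicted, ribosomal, mitochondrial and sex-linked genes left out. Only some of the list genes it takes are printed. Other list genes, such as Coro1a, Lyn, Jak1 and Runx1, those detected together and those of cells 3, 9 and 36 were named after their values were seen. The settings without cells 3, 9 and 36 and relative to transcript length were added after seeing the data. Other settings were other scalings, pseudocounts and minimums, thinning, thresholds on Ptprc, ranges of genes detected and label number, and leaving out each cell.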

Additional observations from a re-analysis of the deposited data

How the results depend on the processing

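The division rests on 1 transcript, on 48 cells with no named embryo or plate, and on reads rather than molecules; how many molecules were captured per cell is not known, so a 0 is no proof that a transcript was absent. Sides within a range of label numbers hold 4 to 12 cells, and values there are the least certain. No paired analysis was possible because the cell numbers of the labels pair no cells and the sides were cut from 1 sample.

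The number of genes called higher, 2731, became 480 with 10 CPM added, 4098 within cells 33 to 48 and 1352 by the difference of mean log2 values; the number called lower, 1674, became 286 with 10 CPM added, 3127 within cells 17 to 32 (against 2151 higher) and 424 by mean log2 values.

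The leukocyte median, 0.11, was 0.027 with Ptprc taken at 10 CPM or more, 0.016 with no minimum on reads, 9.32e-05 by mean cell CPM, 0.25 by mean log2 values, -0.027 after thinning and -0.0064 relative to transcript length. It was 1.45 within cells 1 to 16, where cells 3 and 9 lie on the side without Ptprc. It was -0.30 within cells 17 to 32 and 0.022 within cells 33 to 48, and ran from -0.056 to 0.20 with 1 cell left out.

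The endothelial median, -0.13, was -0.031 with Ptprc taken at 10 CPM or more, 0.15 by mean log2 values, -0.046 in the middle range of genes detected and -0.29 after thinning. It was -1.49 within cells 1 to 16, -0.26 within cells 17 to 32 and 1.82 within cells 33 to 48. Without cells 3, 9 and 36 it was 0.24, and it ran from -0.37 to 0.37 with 1 cell left out. The share of nearest cells on the same side without Ptprc, 55%, was 29.4% after thinning.

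Signs of single called genes reversed in these settings. Within cells 1 to 16 the log2 ratio was 0.048 for Armc7, -0.67 for Ets1, -0.39 for Exoc1, 1.12 for Fam84b, -0.61 for Klf2, 1.60 for Pfkfb1, 1.24 for Ptprcap, 0.18 for Syngr1, -0.84 for Tpx2, -2.16 for Ubxn7 and -0.43 for Zeb2. Within cells 17 to 32 it was -3.19 for Ikzf1, -3.67 for Nckap1l, 0.80 for Sox7 and -1.83 for Ubxn7. Within cells 33 to 48 it was -0.085 for Btk, 4.48 for Mmrn2, 4.03 for N4bp2l1 and 4.15 for Sox7. In the middle range of genes detected it was 2.41 for Sox7 and -2.08 for Ubxn7. Without cells 3, 9 and 36 it was 0.13 for Mmrn2 and 0.35 for Sox7, and with 1 cell left out it ran from -1.55 to 0.32 for Mmrn2 and from -2.30 to 1.05 for Sox7. Apart from the loss of cell 3 in the Sox7 and Mmrn2 values, the causes were not tested. Of the values compared under other settings for single genes, 25 reversed, 807 moved beyond the counting interval without reversing a call and 812 did not.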
